A study of Homo sapiens with 2 samples.

Results

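Interferon-stimulated genes and their regulators were followed in 2 RNA-seq libraries of the human line MDA-MB-231, which comes from a triple-negative breast cancer. The 49 genes were taken by name, as genes known to be induced by interferon or to relay its signal, and their symbols were looked up in the GENCODE release 29 annotation. They were chosen with earlier results of these data known, which can shape the shares set beside those of all genes. All 49 were found among 49627 listed genes. Of these 49 genes, 35 are antiviral genes of the kind that type I interferon induces, 7 are genes of the kind that IFN-γ induces (IRF1, GBP1, GBP2, GBP3, CXCL9, CXCL10 and CXCL11), 5 are transcription regulators and 2 are chains of the IFN-γ receptor.

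The study asked what RBMS1, an RNA-binding protein, does in breast cancer cells. One library was made from cells with RBMS1 knocked down and 1 library from control cells. Per the study's methods, stable lines were made by lentiviral delivery of an shRNA in the pLKO.1 plasmid and selection with puromycin, and the empty pLKO.1 plasmid served as control. Both cultures grew in L15 medium with serum and without carbon dioxide. The labels name no interferon treatment for either library. The labels do not state whether the stable line was a pool or a clone. The empty plasmid encodes no hairpin, so the presence of an shRNA and the loss of RBMS1 cannot be told apart in these groups. Each group has a single library, so there was no replicate check and no test, and all differences describe these 2 libraries.

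Interferons are secreted proteins that bind receptors on the cell surface and activate JAK kinases, which phosphorylate STAT proteins. Type I interferon leads to a complex of STAT2, IRF9 and a further STAT protein that binds the interferon-stimulated response element (ISRE), while IFN-γ leads to STAT dimers that bind the gamma-activated sequence (GAS). The induced genes encode sensors of viral RNA, proteins that block viral entry, translation or release, and regulators that amplify or end the response, and many tumor cell lines express a share of them without added interferon.

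Promoter sequences are given before the levels, since the ISRE and GAS are what many of these genes have in common. RefSeq promoters on GRCh38.p14, from 250 bases before to 50 bases after the annotated start of a gene, were found for 37 of the 49 genes. IRF2, IRF3, IRF7, GBP2, DHX58, IFIT2, OAS2, OASL, IFITM2, MX2, USP18 and PML had no entry. An ISRE core was searched on both strands as GAAA, any 2 bases, GAAA, and it was present in 24 of the 37 promoters, against 3.57% of all 35116 promoters. The GAS was searched as TTCNNNGAA, where N is any base, a pattern that reads the same on both strands, and it was present in 9 of the 37 promoters, against 7.66% of all promoters. Both motifs were present in 4 promoters (GBP3, IFITM1, BST2 and IFI27), and in 3 of these, IFITM1, BST2 and IFI27, they overlapped. In 14 promoters the ISRE core occurred at least 2 times, and in 5 of them copies overlapped one another. A match describes letters in a window and is not evidence of binding.

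The stretches printed next are those around the nearest ISRE core wholly before the start in which no exon of any gene is annotated, for genes with a mean level of at least 1 FPKM (the unit is explained with the levels). There are 7 of them, and they are shown because they let the shared element be compared between genes that were higher and genes that were lower in the knockdown library. Capitals mark each ISRE core, and every stretch is written 5′ to 3′ on the strand of its gene. The stretch of IFIT1 lies at chr10:89392505-89392544 (plus strand), within an intron of LIPA, that of SAMD9 at chr7:93118091-93118130 (minus strand), and that of HERC5 at chr4:88457030-88457069 (plus strand). The stretch of ISG15 lies at chr1:1013375-1013414 (plus strand) and that of IFI27 at chr14:94110626-94110665 (plus strand), both inside introns of longer transcripts of the same gene. The stretch of IFI6 lies at chr1:27672261-27672300 (minus strand), within an intron of AL445490.1, and that of IFI44 at chr1:78649756-78649788 (plus strand). Those of SAMD9, HERC5 and IFI44 lie within no annotated gene.
IFIT1: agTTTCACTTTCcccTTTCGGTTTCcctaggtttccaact
SAMD9: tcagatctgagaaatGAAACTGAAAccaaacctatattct
HERC5: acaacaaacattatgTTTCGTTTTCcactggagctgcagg
ISG15: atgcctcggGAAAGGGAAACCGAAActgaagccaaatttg
IFI27: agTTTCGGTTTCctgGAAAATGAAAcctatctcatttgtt
IFI6: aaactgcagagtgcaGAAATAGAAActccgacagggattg
IFI44: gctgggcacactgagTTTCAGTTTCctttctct

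IFIT1, HERC5 and IFI44 carry the core in the reverse orientation, and IFI27 carries it in both. ISG15 carries overlapping copies. For the GAS, 3 stretches met the same conditions, of which that of IFI27 overlaps its ISRE core and is not printed again. The stretch of IRF1 lies at chr5:132490873-132490912 (minus strand), in an intron of AC116366.3, and that of CXCL11 at chr4:76036281-76036320 (minus strand), in introns of ART3 and of a longer CXCL11 transcript. Capitals mark the GAS.
IRF1: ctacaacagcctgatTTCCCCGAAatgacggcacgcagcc
CXCL11: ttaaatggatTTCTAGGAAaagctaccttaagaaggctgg

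Levels are given as FPKM, in which Cufflinks divides the fragments of a transcript by its length in kilobases and by the size of the library. The level of a gene adds up its reference transcripts and those transcripts assembled by Cufflinks from the reads that share an intron with the gene. Differences are given as the log2 ratio of FPKM + 1, knockdown over control, so a positive value means a higher level in the knockdown library, and the difference of a low gene is understated. Cufflinks also gives an interval for each transcript that covers uncertainty within a library, and a gene is said to have intervals apart where the summed intervals of both libraries do not overlap. The sum includes the upper bounds of transcripts listed at 0, which widens the interval of a gene with many such transcripts, so a narrower sum over transcripts above 0 was added after the data had been seen and is given where it changes the call. The files hold no read counts. The depth in reads is therefore unknown, and the median coverage per FPKM was 12.4 for the knockdown and 11.4 for the control.

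Among the levels, the target was examined first. RBMS1 had 3.76 FPKM in the knockdown library and 24.1 FPKM in the control library (log2 ratio −2.40), with intervals apart, in the direction of the labels. The cell line was checked by its markers. Of 9 markers of MDA-MB-231 and of luminal or HER2-positive cells, 6 reached a mean of 1 FPKM. These were VIM, CD44, KRT18, KRT8, EPCAM and ERBB2, so keratins of epithelial cells (KRT18 at 162 and 190 FPKM, KRT8 at 160 and 122 FPKM) were expressed beside mesenchymal genes. Of the KRT8 level in the knockdown library 87.3 FPKM is an assembled transcript, and without it KRT8 was lower there (log2 ratio −0.74). EPCAM was low with 1.93 FPKM in the knockdown library and 3.66 FPKM in the control library, and ERBB2, which encodes HER2, had 7.50 and 7.0 FPKM. The most abundant was VIM, an intermediate filament of mesenchymal cells, with 496 and 563 FPKM in the knockdown and control library. CD44 had 154 and 204 FPKM (log2 ratio −0.41). Intervals were apart for VIM, CD44, KRT18 and EPCAM, lower in the knockdown library, and for KRT8, higher there with the assembled transcript counted. The hormone receptors ESR1 and PGR stayed below 0.1 FPKM in both libraries. The summed level of the 9 markers was 981 FPKM in the knockdown library and 1091 FPKM in the control library. Among 9 leukocyte markers none reached a mean of 1 FPKM, their summed level was 1.08 and 1.01 FPKM, CD14 was the most abundant, and 5 were listed at 0 in both libraries, CD3E, CD3D, CD68, NKG7 and ITGAM. Among 6 endothelial and fibroblast markers none reached 1 FPKM either, with a summed level of 0.572 and 1.09 FPKM, COL1A1 as the most abundant, and CDH5 at 0 in both. In bulk RNA, fewer cells that express a gene and less RNA of it per cell cannot be told apart.

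Of the 49 genes, 41 had a mean level of at least 1 FPKM over both libraries and 8 did not. Among the 41, 28 were higher in the knockdown library (52.8% of all 11186 genes at that level were higher) and 13 were lower (47.2% of all genes). The median log2 ratio of the 41 was 0.20, against 0.02 for all genes. Fold differences were counted on FPKM + 1, like the log2 ratios. A difference of at least 1.5-fold was found for 3 of the 41 in the higher direction, GBP2, DDX58 and IFITM2. That is 7.32% of them and close to the 6.78% of all genes. In the lower direction it was found for 0 of the 41, against 5.99% of all genes. None of the 41 reached 2-fold in either direction, which 2.96% of all genes did upward and 2.8% downward. By FPKM without the added 1, MX1 and USP18 were also at least 1.5-fold higher, and CXCL11 was at least 1.5-fold lower. Intervals were apart with the knockdown library higher for 10 of the 41 (24.4%, against 13.3% of all genes) and with the knockdown library lower for 2 of the 41 (4.88%, against 11.5% of all genes). Counting only transcripts above 0, the intervals were apart for 14 of the 41 in the higher direction (34.1%, against 19.2% of all genes) and for 3 in the lower (7.32%, against 16.5%), and under the 3 other scalings described with the type I genes for 9 and 2, where 11.2% to 11.9% of all genes were apart in the higher direction and 11.7% to 13.1% in the lower. Most of the 41 leaned to higher values by small amounts. How often they differed by 1.5-fold depended on the transcripts counted, since by reference transcripts alone 7 of 38 (18.4%) were at least 1.5-fold higher, against 10.8% of all genes, and under median and upper quartile scaling IFITM2 dropped below 1.5-fold, leaving 2 of 41. The summed level of the 49 genes was 793 FPKM in the knockdown library and 725 FPKM in the control library.

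**Figure D1:**
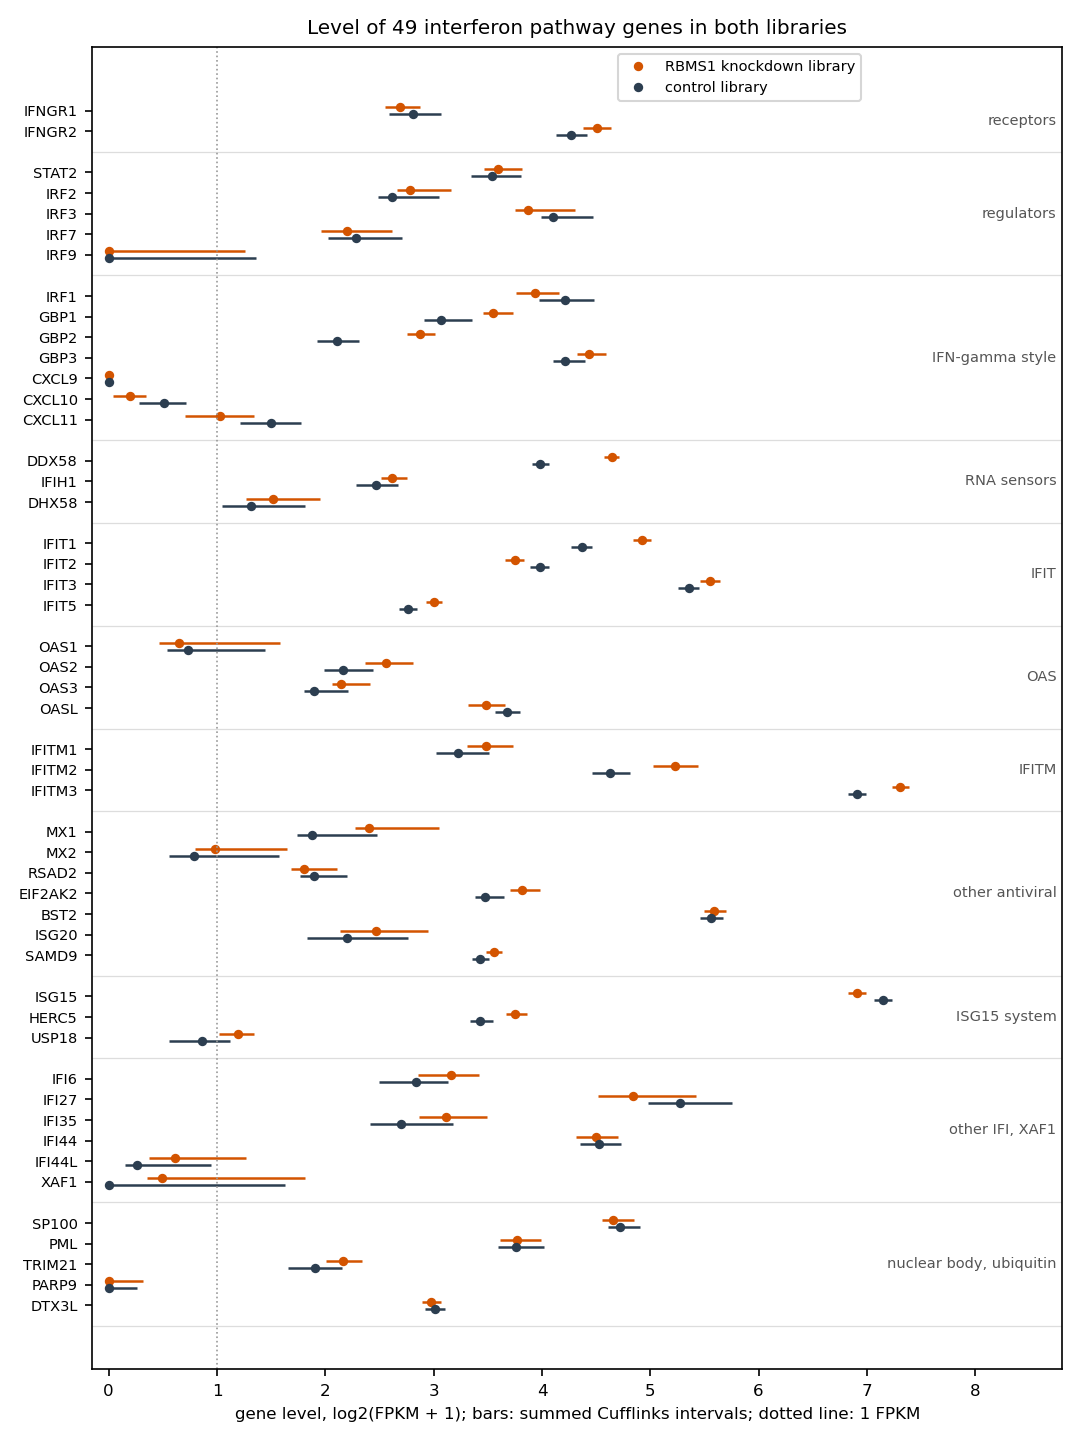
Level of all 49 genes in both libraries, by role, on a log2(FPKM + 1) axis; points are gene levels (orange, RBMS1 knockdown; dark, control), bars the summed Cufflinks intervals, and the dotted line 1 FPKM. IFITM3 and ISG15 stand highest in both libraries, the bars of DDX58, IFIT1, GBP2 and IFITM3 are separated, and CXCL9, IRF9 and PARP9 sit at 0 in both.

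The levels spanned a wide range. IFITM3 ranked first among the 49 by mean level and 296 among all 11186 genes, and ISG15 ranked 320. These genes moved in opposite directions, as given with their families, so their sum differed little, 277 FPKM in the knockdown library and 260 FPKM in the control library. The other 47 genes summed to 516 and 465 FPKM.

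The IFN-γ receptor is built from IFNGR1, the chain that binds the ligand, and IFNGR2, the chain that brings in JAK2. IFNGR1 had 5.45 FPKM in the knockdown library and 6.03 FPKM in the control library (log2 ratio −0.12). IFNGR2 had 21.7 and 18.3 FPKM (log2 ratio 0.23). Intervals overlapped for both chains. The control value of IFNGR1 includes an assembled transcript of 2.11 FPKM, and by reference transcripts alone IFNGR1 was higher in the knockdown library, 5.45 against 3.92 FPKM (log2 ratio 0.39).

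Among the transcription regulators, the summed intervals overlapped for all 5. STAT2, a subunit of the ISRE-binding complex, had 11.1 FPKM in the knockdown library and 10.6 FPKM in the control library (log2 ratio 0.06). That near equality depends on how reads were given to transcripts. The knockdown level holds an assembled transcript of 4.55 FPKM, and without it STAT2 was lower in the knockdown library, 6.56 against 10.6 FPKM (log2 ratio −0.62). Its dominant reference transcript, the one with the highest mean level, was higher, 6.56 against 4.69 FPKM (log2 ratio 0.41). So the direction of STAT2 is not settled. IRF3, which is activated by viral RNA and DNA sensors, had 13.6 and 16.2 FPKM (log2 ratio −0.24), and for its only transcript above 0 the intervals were apart. IRF7, itself an interferon-induced gene that amplifies the response, had 3.59 and 3.85 FPKM (log2 ratio −0.08). IRF2, a factor that can counter IRF1, had 5.89 and 5.13 FPKM (log2 ratio 0.17). The regulators as a group had no common direction, 2 higher and 2 lower.

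IRF9, the DNA-binding subunit of the ISRE complex, was listed at 0 in both libraries. This value cannot be read as absence. Of its 15 reference transcripts, 9 carried the Cufflinks mark for full read support in the knockdown library, as did 10 in the control. Only 1 of the 15 was compared with other genes, a transcript of 658 bases taken by identifier order because all 15 stood at 0. Of its 50-base words, 92.8% also occur in transcripts of the overlapping gene AL136295.5. Whether this bears on the listing at 0 despite the mark was not tested. Such a state was not rare: of 19704 protein-coding genes, 5445 were listed at 0 in both libraries, and 987 of these (18.1%) had a transcript with that mark in both. CXCL9 and PARP9 were listed at 0 as well. The single CXCL9 transcript had no full read support and an upper bound of 0 in both libraries. PARP9, a partner of the ubiquitin ligase DTX3L, had 1 of 7 transcripts with full support in the knockdown library and 3 of 7 in the control library.

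The genes of the IFN-γ kind had no common direction. The 3 guanylate-binding proteins among the members, GTPases that attack intracellular pathogens, were higher in the knockdown library. GBP2 had 6.35 FPKM in the knockdown library and 3.32 FPKM in the control library (log2 ratio 0.77), GBP1 had 10.7 and 7.40 FPKM (log2 ratio 0.48), and GBP3 had 20.6 and 17.6 FPKM (log2 ratio 0.22). Intervals were apart for GBP1 and GBP2, and for GBP3 they were apart only over transcripts above 0, by a narrow gap (19.01 against 19.00 FPKM). By reference transcripts alone the log2 ratio was 0.85 for GBP1 and 0.66 for GBP3. Of the relatives outside the 49 genes, GBP4 was nearly equal with 2.67 and 2.45 FPKM, and GBP5 was lower in the knockdown library below the filter, 0.153 against 0.497 FPKM. GBP2 ranked 469 from the top among the log2 ratios of all 11186 genes. The 3 genes lie within 144 kb of chromosome 1, and shared 50-base words were few, 3.09% for GBP2 and 13.3% for GBP1, the latter mostly with the pseudogene GBP1P1. IRF1, the transcription factor through which IFN-γ induces many secondary genes, pointed the other way with 14.3 FPKM in the knockdown library and 17.6 FPKM in the control library (log2 ratio −0.28). The chemokine CXCL11, which attracts activated T cells through CXCR3, had 1.04 and 1.83 FPKM (log2 ratio −0.47). Intervals overlapped for both. The log2 ratio of IRF1 was −0.58 by reference transcripts alone and −0.11 by its dominant transcript. CXCL10, a further CXCR3 ligand, was below the filter with 0.147 FPKM in the knockdown library and 0.427 FPKM in the control library. Of the 5 genes past the filter 3 were higher and 2 lower, with a median log2 ratio of 0.22. A filter of 0.1 FPKM, which admits CXCL10, turned the median to −0.034, while it was 0.71 by reference transcripts alone and 0.59 by the dominant transcript, so the median depends on the genes and transcripts counted.

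**Figure D2:**
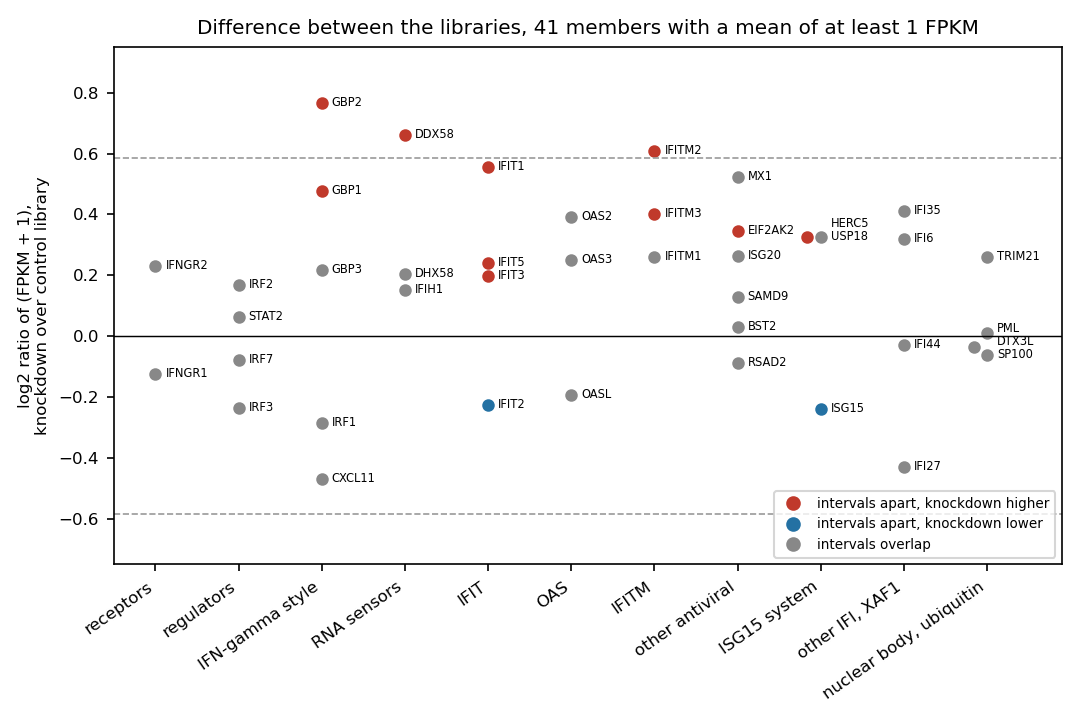
The log2 ratio of FPKM + 1, knockdown over control library, for the 41 genes past the filter, by role; red and blue points have intervals apart, grey points overlapping ones, and dashed lines mark a difference of 1.5-fold. GBP2 (0.77), DDX58 (0.66) and IFITM2 (0.61) lie above the upper line and no gene lies below the lower line.

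The cytosolic RNA sensors recognise viral RNA and signal to IRF3 and IRF7. DDX58, which encodes RIG-I, had 24.0 FPKM in the knockdown library and 14.8 FPKM in the control library (log2 ratio 0.66), with intervals apart and a single transcript above 0 in each library. IFIH1, which encodes MDA5, had 5.13 and 4.52 FPKM (log2 ratio 0.15). DHX58, the sensor LGP2 that tunes both, had 1.86 and 1.48 FPKM (log2 ratio 0.20). All 3 sensors were higher in the knockdown library, and only for DDX58 did the intervals separate. By reference transcripts alone IFIH1 was further apart, 5.13 against 2.72 FPKM (log2 ratio 0.72), and DHX58 was equal, 0.931 against 0.934 FPKM.

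The IFIT proteins bind viral RNA and block its translation, and their 4 genes lie within 137 kb of chromosome 10. IFIT1 had 29.3 FPKM in the knockdown library and 19.6 FPKM in the control library (log2 ratio 0.56). IFIT3 had 45.9 and 39.9 FPKM (log2 ratio 0.20), and IFIT5 had 7.03 and 5.79 FPKM (log2 ratio 0.24). IFIT2, within the same cluster, was lower in the knockdown library with 12.5 against 14.8 FPKM (log2 ratio −0.23). Intervals were apart for each of the 4, but for IFIT3 the gap was narrow (42.9 against 42.7 FPKM) and closed under each of the 3 other scalings. IFIT1 and IFIT5 thus stood apart in the opposite direction from IFIT2. None of the 4 had an assembled transcript.

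The IFITM proteins sit in membranes and hinder viral fusion. IFITM3 had 158 FPKM in the knockdown library and 119 FPKM in the control library (log2 ratio 0.40). IFITM2 had 36.6 and 23.7 FPKM (log2 ratio 0.61), and IFITM1 had 10.2 and 8.35 FPKM (log2 ratio 0.26). All 3 were higher in the knockdown library, with intervals apart for IFITM2 and IFITM3. Their sequences are alike, and the division of reads between them is uncertain: 42.3% of the 50-base words of IFITM1 occur in other genes, 15.7% of those of IFITM2 and 20.3% of those of IFITM3. The difference of IFITM2 came in part from a second transcript, listed at 9.99 FPKM in the knockdown library only, and its main transcript had 26.6 and 23.7 FPKM (log2 ratio 0.16). The sum over the family, which depends less on that division but is not free of it because the transcripts differ in length, was 204 FPKM in the knockdown library and 151 FPKM in the control library.

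The OAS enzymes make a second messenger that activates RNase L. OAS2 had 4.89 FPKM in the knockdown library and 3.49 FPKM in the control library (log2 ratio 0.39), and OAS3 had 3.44 and 2.73 FPKM (log2 ratio 0.25). OASL, a relative without this activity that supports RIG-I, had 10.2 and 11.8 FPKM (log2 ratio −0.19). OAS1 was below the filter with 0.566 and 0.663 FPKM. The summed intervals overlapped for all 4, while over transcripts above 0 they were apart for OAS2 and OAS3 and overlapped for OASL. The family had no common direction, with 2 higher and 1 lower past the filter, or 2 and 2 as TPM. The log2 ratio of OAS2 was 0.19 by reference transcripts alone and −0.03 by its dominant transcript. By reference transcripts alone OASL had 7.77 against 11.8 FPKM (log2 ratio −0.54).

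Other antiviral effectors were mostly a little higher in the knockdown library. EIF2AK2, the kinase PKR that halts translation on sensing double-stranded RNA, had 13.1 FPKM in the knockdown library and 10.1 FPKM in the control library (log2 ratio 0.35), with intervals apart. This direction depends on the sum over transcripts, because the reference transcript with the highest mean level alone was lower, 4.17 against 7.28 FPKM (log2 ratio −0.68), while another, at 5.14 FPKM, was listed above 0 in the knockdown library only. MX1, a GTPase that traps viral nucleocapsids, had 4.28 and 2.67 FPKM (log2 ratio 0.52), and the intervals of its only transcript above 0 were apart while the summed ones overlapped. ISG20, an RNA exonuclease, had 4.54 and 3.61 FPKM (log2 ratio 0.26), and SAMD9, an inhibitor of poxviruses, had 10.8 and 9.79 FPKM (log2 ratio 0.13). Intervals overlapped for the latter pair. BST2, or tetherin, which holds budding virions at the cell surface, had 47.1 and 46.2 FPKM (log2 ratio 0.03). RSAD2, or viperin, which makes a chain-terminating nucleotide, had 2.49 and 2.71 FPKM (log2 ratio −0.09). MX2, which acts against HIV, was just below the filter with 0.980 and 0.731 FPKM. Of the 6 genes past the filter 5 were higher, 4 with the libraries scaled on the median of well-expressed genes, where BST2 moved to the other side of 0.

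ISG15 is a ubiquitin-like protein that HERC5 attaches to new proteins and USP18 removes. ISG15 was lower in the knockdown library, with 119 FPKM against 141 FPKM in the control library (log2 ratio −0.24) and intervals apart. The ligase HERC5 went the other way with 12.5 and 9.75 FPKM (log2 ratio 0.33) and intervals apart. USP18, which also damps the type I receptor, had 1.28 and 0.820 FPKM (log2 ratio 0.33), with overlapping intervals and 23.4% of its 50-base words shared, mostly with USP41. The modifier and its ligase thus differed in opposite directions.

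Among the remaining IFI genes, 2 were higher and 2 lower, and the intervals overlapped for all of them. IFI6, a mitochondrial protein that counters apoptosis, had 7.92 FPKM in the knockdown library and 6.15 FPKM in the control library (log2 ratio 0.32). IFI35, a partner of NMI, had 7.64 and 5.49 FPKM (log2 ratio 0.41). IFI27, whose level in blood is a common marker of interferon exposure, had 27.6 and 37.6 FPKM (log2 ratio −0.43). With all transcripts summed, this was the lowest log2 ratio of the type I kind. By reference transcripts alone that of OASL was lower (−0.54), and the dominant transcript of IFI27 had a log2 ratio of −0.15. IFI44 was nearly equal with 21.6 and 22.1 FPKM (log2 ratio −0.03). Its neighbour IFI44L stayed below the filter with 0.533 and 0.200 FPKM, as did XAF1, an antagonist of an apoptosis inhibitor, with 0.403 FPKM in the knockdown library and a listing at 0 in the control library. For XAF1, 4 of 19 transcripts in the control library carried the mark for full read support, so the 0 is no sign of absence.

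Nuclear body and ubiquitin ligase genes differed little. PML, the organiser of PML nuclear bodies, had 12.7 FPKM in the knockdown library and 12.6 FPKM in the control library (log2 ratio 0.01), and SP100, a further component of these bodies, had 24.3 and 25.4 FPKM (log2 ratio −0.06). TRIM21, a receptor for antibody-coated virus, had 3.49 and 2.75 FPKM (log2 ratio 0.26), and DTX3L had 6.85 and 7.05 FPKM (log2 ratio −0.04). Intervals overlapped for all 4 genes. For PML the transcripts listed differed between the libraries. Assembled transcripts made up 5.09 FPKM of its control level and none of its knockdown level, so by reference transcripts alone it was higher in the knockdown library, 12.7 against 7.48 FPKM (log2 ratio 0.69). By its dominant reference transcript, with 4.94 FPKM in the control and a listing of 0 in the knockdown, it was far lower (log2 ratio −2.57), so single transcripts of PML give no direction.

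Taking the 35 genes of the type I kind, 30 passed the filter, 22 were higher and 8 lower in the knockdown library, and the median log2 ratio was 0.25. Under 3 other scalings of the libraries the median lay between 0.22 and 0.25, and the number of higher genes was 20 or 21 of 30, or 23 of 33 as TPM (levels rescaled to a common total over the genes). Over all members past the filter the number of higher genes under these scalings was 26 or 27 of 41, or 29 of 44 as TPM, while the share of all genes that were higher fell just below even (48.7%, 49.5% and 49.1%). Neighbouring members did not always move together. In 8 places 2 or more members lay within 100 kb of one another, 22 members in all, and besides the GBP and IFITM clusters, where all members were higher, the OAS cluster of chromosome 12 had 2 of 2 higher past the filter.

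The assembled transcripts mattered for a minority of genes. Of the 41 genes past the filter 26 had none in either library, and 15 had at least 1, of which 10 had them in 1 library only. Leaving them out changed the sign for 4 genes, IFNGR1, STAT2, DHX58 and IFI44. For the 26 genes without any, the level rests on reference transcripts in both libraries, and 18 of these 26 were higher in the knockdown library and 8 lower, with a median log2 ratio of 0.24. Over all genes past the filter, with or without assembled transcripts, 52.8% were higher and the median was 0.02. The subset of 26 was chosen after the data had been seen. GBP2, DDX58, IFITM2 and IFIT1 are among the 26.

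**Figure D3:**
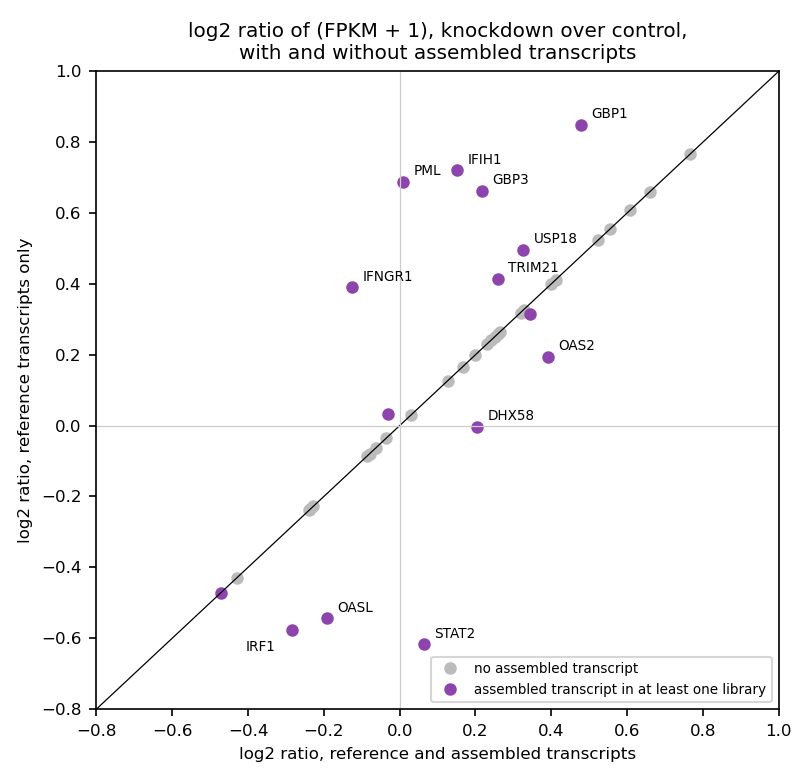
The log2 ratio of FPKM + 1, knockdown over control library, of the 41 genes past the filter by reference and assembled transcripts (x axis) and by reference transcripts only (y axis); purple points have an assembled transcript in at least 1 library and the line marks equality. Grey points lie on the line by construction, PML, IFIH1, GBP3, GBP1 and IFNGR1 lie above it, and STAT2, OASL and IRF1 below it.

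The promoter search was set beside the differences as a description. Of the 21 genes past the filter with an ISRE core in the window, 17 were higher in the knockdown library and the median log2 ratio was 0.25. Of the 9 genes past the filter without it, 4 were higher and the median was −0.06. Of all 11186 genes past the filter, 52.8% were higher, with a median of 0.02. The genes that carry the core include ISG15 and IFI27, which were lower, and the genes without it include DDX58, which was higher. Both groups thus held genes of either direction, and a link between the core and the direction was not tested. For the GAS, 4 of 7 genes with it were higher (median 0.03) and 17 of 23 genes without it (median 0.24). BST2, which carries both motifs and is counted as higher, had a log2 ratio of −0.002 under median scaling. Among the stretches printed above, IFIT1, HERC5, IFI6 and SAMD9 belong to genes with a positive log2 ratio, and ISG15, IFI27 and IFI44 to genes with a negative one.

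The wider pathway was examined through lists of further genes. Of 10 interferon ligands, among them IFNB1, IFNA1, IFNA2, IFNG and IFNL1, none reached 1 FPKM, and their summed level was 0.0511 FPKM in the knockdown library and 0.205 FPKM in the control library. Only IFNK and IFNL1 were above 0 in any library, and the others were listed at 0, which need not mean absence.

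Of 7 further receptors and kinases 6 passed the filter, 2 higher and 4 lower, with a median log2 ratio of −0.10 that was 0.19 by reference transcripts alone and 0.22 by the dominant transcript. IL10RB, a chain of the IFN-λ receptor, was the highest with 9.04 FPKM in the knockdown library and 6.16 FPKM in the control library (log2 ratio 0.49). IFNAR1, a chain of the type I receptor, was the lowest with 7.58 and 14.2 FPKM (log2 ratio −0.82). Most of its control level was an assembled transcript, and by reference transcripts alone it was 6.48 against 5.02 FPKM (log2 ratio 0.31). Of 9 negative regulators 8 passed, 6 higher and 2 lower. The highest was SOCS3, an inhibitor of JAK kinases, with 9.61 and 6.01 FPKM (log2 ratio 0.60). The lowest was PTPN2, a phosphatase of JAK and STAT proteins, with 15.1 and 17.0 FPKM (log2 ratio −0.17). By reference transcripts alone PTPN2 had a log2 ratio of −0.43, and neither gene stood at an end of the list.

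The list of sensor adaptors and kinases leaned the other way from the 3 RNA sensors above. It also holds other nucleic acid sensors, of which MB21D1 (log2 ratio −0.17) and IFI16 (log2 ratio −0.03) passed the filter. Of 14 listed 11 passed the filter, 2 higher and 9 lower in the knockdown library, with a median log2 ratio of −0.17 that ran from −0.20 to −0.19 under the 3 other scalings. The highest was the kinase TBK1 with 8.49 FPKM in the knockdown library and 7.83 FPKM in the control library (log2 ratio 0.10), and the lowest was the adaptor TRADD with 2.68 and 5.15 FPKM (log2 ratio −0.74). Intervals were apart for 5 genes, all lower in the knockdown library (11.5% of all genes had intervals apart in that direction). Besides TRADD these were MAVS, TRAF3, IKBKE and TRIM25, which are named because of their values. MAVS, the adaptor that DDX58 and IFIH1 signal through, had 11.3 and 13.7 FPKM (log2 ratio −0.26), and TRIM25, a ubiquitin ligase that acts on RIG-I, had 17.5 and 23.5 FPKM (log2 ratio −0.40). TRAF3, which links adaptors to TBK1, had 8.29 and 14.1 FPKM (log2 ratio −0.70), and IKBKE, a relative of TBK1, had 4.13 and 6.24 FPKM (log2 ratio −0.50). The size of the TRAF3, MAVS and TRADD differences depends on the transcripts counted. By reference transcripts alone TRAF3 (log2 ratio −1.33) and MAVS (log2 ratio −0.49) were further apart. The dominant transcript of TRAF3 was less far apart, with 5.003 against 6.858 FPKM, and that of TRADD had 2.68 against 3.17 FPKM. DDX58 and MAVS thus stood on opposite sides in these libraries.

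Further genes of the type I kind, 30 listed and 27 past the filter, were balanced with 14 higher and 13 lower and a median log2 ratio of 0.01, which was slightly negative under the 3 other scalings (−0.02, −0.02 and −0.01). They ran from HELZ2, a helicase, with 4.75 FPKM in the knockdown library and 2.80 FPKM in the control library (log2 ratio 0.60) to TRIM14, an adaptor at MAVS, with 6.15 and 8.91 FPKM (log2 ratio −0.47), where 2.47 FPKM of the control level is an assembled transcript (log2 ratio −0.06 without it). Further genes of the IFN-γ kind, 20 listed and 14 past the filter, had 7 higher and 7 lower and a median of 0.04, which was −0.05 as TPM. They ran from CIITA, the activator of MHC class II genes, with 5.60 and 2.78 FPKM (log2 ratio 0.81) to the adhesion molecule ICAM1 with 9.20 and 31.2 FPKM (log2 ratio −1.66). For CIITA the control level is an assembled transcript, with reference transcripts listed at 0. The dominant transcript of ICAM1 was less far apart, 9.20 against 17.7 FPKM. In the main setting these lists showed no lean to higher values, but with the dominant transcript only the further type I median was 0.18, close to the 0.19 of the members.

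**Figure D4:**
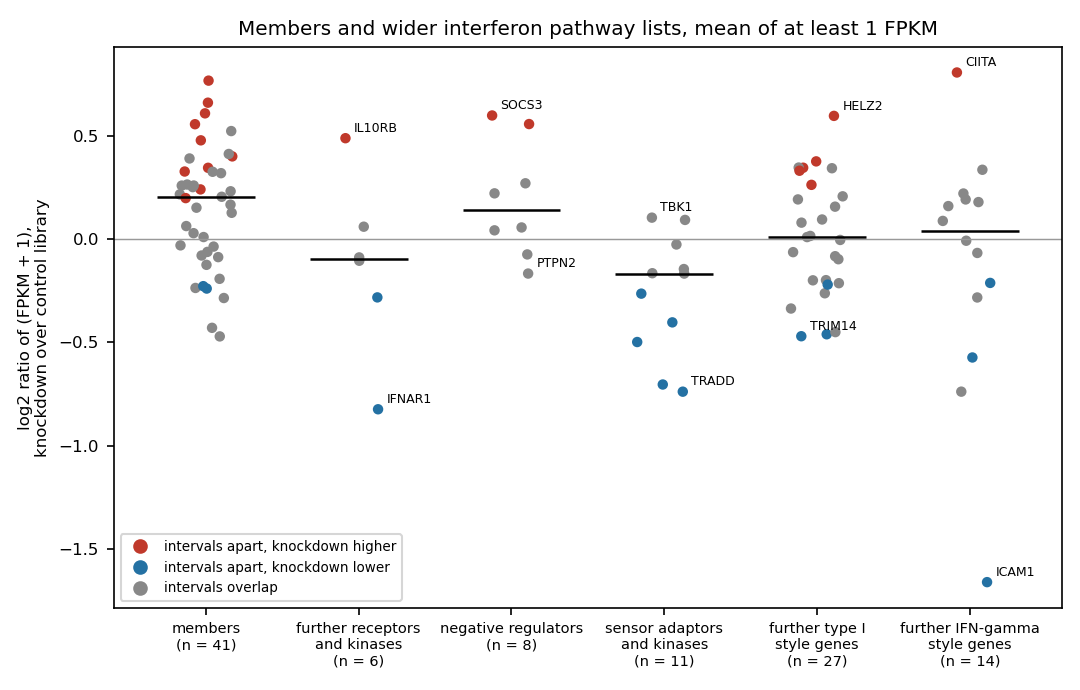
The log2 ratio of FPKM + 1, knockdown over control library, of the members and of genes in 5 wider lists past the filter; black lines are medians, red and blue points have intervals apart, the sideways spread is for legibility, and the highest and lowest gene of each wider list is named. The members have a median of 0.20, and both lists of further interferon-stimulated genes lie around 0. The list of sensor adaptors and kinases, which also holds other nucleic acid sensors, has a median of −0.17.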

How the data were processed

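RNA of 1 RBMS1 knockdown and 1 control library was sequenced. The authors deposited transcripts with FPKM, intervals and coverage as Cufflinks writes them, in GTF files. The submitters' processing notes name Bowtie2 2.0.6, TopHat2 2.0.9, Cufflinks 2.1.1 and Cuffdiff 2.1.1. The genome build, annotation, read length and strandedness are not given in the sources used here. A table of the authors' own comparison (FPKM, log2 fold change, p and q of transcripts) was not used.

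Reference transcripts were joined on their Ensembl identifier to GENCODE release 29, and 98.1% of the shared ones had the same start on GRCh38. An assembled transcript was counted for the gene on its strand with which it shares most introns (at least 1). Assembled transcripts counted for no gene held 54.9% (knockdown) and 60.3% (control) of the FPKM, and reference transcripts outside the annotation 16.0% and 11.6%. A pseudocount of 1 FPKM was added, and a gene passed the filter at a mean of 1 FPKM. An exact 0 can be a failed estimate, so such genes are described as listed at 0. Without counts the depth in reads is unknown.

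Members and lists were chosen with earlier results of these data known. The text names all members past the filter, the highest and lowest gene of each wider list, RBMS1 and markers. It also names GBP4 and GBP5 as relatives of members, and 4 adaptor genes marked as named because of their values. MB21D1 and IFI16 are named as the nucleic acid sensors of the adaptor list past the filter. The alternatives were pseudocounts of 0.1 and 5 FPKM, 3 scalings (median of genes with at least 10 FPKM, TPM, upper quartile), reference transcripts only, the dominant reference transcript only, filters of 0.1 and 5 FPKM, and after seeing the data, members without assembled transcripts and members above 0 by reference transcripts in both libraries, and intervals over transcripts above 0 or under the scalings. One leukocyte marker of the planned list is not reported here. No test was made between the groups. Calculations used Python 3.11.15 with pandas 2.3.3, and the steps were tested on simulated data.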

Additional observations from a re-analysis of the deposited data

Results flagged for a closer look

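At the PARP9 locus, where the gene itself is listed at 0 in both libraries, assembled transcripts sharing no intron with PARP9 and used for no gene amounted to 1.66 in the knockdown library, as FPKM times length in kilobases, and to 0 in the control library. They were 2 transcripts of 1491 bases in all with a mean of 1.11 FPKM. This is signal outside the gene levels reported, present above the control library. PARP9 overlaps DTX3L on the opposite strand, and the strandedness of the libraries is not stated. At the SP100 locus such transcripts amounted to 12.6 over 11591 bases (mean 1.08 FPKM) in the knockdown library and 6.73 over 9053 bases (mean 0.743 FPKM) in the control library. Of 10 member loci with such transcripts 5 were lower in the knockdown library: IFIH1 (0.554 against 1.02), MX2 (0 against 0.872), EIF2AK2 (3.11 against 3.21), ISG20 (0 against 0.404) and PML (0 against 0.890).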

How the results depend on the processing

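The direction of the median over the members past the filter of each setting was kept under each alternative run, from 0.11 with a pseudocount of 5 FPKM to 0.25 with reference transcripts only (38 members). The choice of transcripts moved more values than the scaling of the libraries did, and the causes were not tested.

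Members at least 1.5-fold higher numbered 3, but 5 with a pseudocount of 0.1 FPKM (12.2%, against 9.09% of all genes), 0 with 5 FPKM (3.14% of all genes), 5 as TPM (11.4% against 9.62%) 7 with reference transcripts only (18.4% against 10.8%), 4 by the dominant transcript alone (10.5% against 10.0%), and 2 under median scaling (4.88% against 6.29%), upper quartile scaling (4.88% against 6.35%) and a filter of 5 FPKM (6.90% against 5.13%). Members at least 1.5-fold lower numbered 0, but 1 with a pseudocount of 0.1 FPKM (8.28% of all genes), 1 as TPM (9.87%), 1 by reference transcripts alone (9.96%) and 2 by the dominant transcript alone (9.08%). With a pseudocount of 5 FPKM the type I median was 0.13 and the RBMS1 log2 ratio −1.73.

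With reference transcripts only, the IFN-γ median was 0.71, that of further receptors and kinases turned from −0.10 to 0.19 and that of sensor adaptors and kinases −0.36. With the dominant transcript only, the IFN-γ median was 0.59, the type I median 0.15, that of further receptors and kinases 0.22, that of further type I genes 0.18, PML moved to −2.57 and EIF2AK2 turned to −0.68. With a filter of 0.1 FPKM the IFN-γ median turned to −0.034. Over the members without assembled transcripts, a smaller set by construction, the IFN-γ median was 0.77, which is GBP2 alone, and 18 members were higher.

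Among single members, 273 values under the alternatives stayed within the range of their intervals, 13 moved outside it, and among genes with intervals apart 1 reversed, EIF2AK2. The alternatives without assembled transcripts and above 0 were chosen after seeing the data, as were the narrower and scaled intervals. Over transcripts above 0 only, IRF3, GBP3, OAS2, OAS3 and MX1 joined the genes with intervals apart, and IFIT3 left them under each scaling. No paired analysis was possible because each group has 1 library.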
